A study of Mus musculus with 9 samples.

Results

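The smooth muscle contractile genes Acta2, Actg2, Myh11, Des, Cnn1, Tagln, Smtn, Lmod1, Mylk and Myocd were taken as the rows of the deposited gene table whose symbol equals one of these names. All 10 were found among 33539 listed genes, and all 10 passed the filter on low counts that left 19174 genes for testing. Colons of male wild-type C57BL/6 mice, 9 in all and 3 to a group, were taken at 84 h after irradiation or at the matching time. IR+CF-2 mice received 13 Gy and CF-2, a compound known here only by its code name, as 4 injections of 7.5 mg/kg into the peritoneum (the first 1 h ahead of the irradiation, the others 24, 48 and 72 h later). IR mice received 13 Gy alone. Con mice were not irradiated and received saline by the design text or PBS by the sample labels. The same texts differ on age (8 weeks against 6) and on the field (the abdomen against the whole body), and no group had CF-2 without irradiation. The title of the series concerns protection of the gut epithelium through the cannabinoid receptor CB2.

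Contraction of smooth muscle begins when calcium and calmodulin activate myosin light chain kinase, which phosphorylates the regulatory light chain so that myosin can pull on actin. Actin-binding proteins steady and restrain the thin filament, and desmin filaments tie the apparatus to dense bodies. Many genes of this apparatus are switched on together by serum response factor, which binds CArG boxes in their promoters, and by its coactivator myocardin. In the colon these genes mark the muscle coats of the wall, the muscularis mucosae and the walls of vessels.

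The 10 genes moved as a block from library to library, and within IR and within Con the libraries ranged more widely than the group means differed. Each gene was lowest of all 9 libraries in IR 4, and each had its group's highest value in IR+CF-2 2 and in IR 2. In Con the lowest library was Con 3 for each of the 10. The IR+CF-2 libraries lay near the Con mean and the IR libraries mostly below it. By edgeR's quasi-likelihood test, 0 of the 10 genes passed an adjusted p under 0.05 in any of the 3 comparisons.

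Library totals were 34.4 to 44.3 M counts, and the 10 genes had between 56 counts (Myocd in IR 4) and 93262 (Myh11 in Con 2). Replicates are numbered as in the labels (IR+CF-2 1 to 3, IR 2 to 4, Con 2 to 4), with 1 mouse to a library. In whole colon RNA, fewer muscle cells and less RNA per muscle cell cannot be told apart, and neither can a different share of wall in the piece of tissue taken. Levels are given in CPM, the counts of a gene scaled to the library total, unless FPKM, which also divides by transcript length, is named, and log2 fold changes carry their standard error.

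Promoter sequence was available for 6 of the 10 genes (Acta2, Des, Lmod1, Cnn1, Smtn and Mylk) as RefSeq windows on GRCm38.p6 that run from 250 bases before the start site to 50 after it. A CArG box was searched as CC, 6 bases that are each A or T, and GG, a form that reads the same on both strands. The exact box was in 0 of the 6 windows, against 1.63% of 32817 windows in the table. With a single G or C allowed among the 6 core bases, the near form was in 1 of the 6, Acta2, against 9.99% of all windows. The Acta2 window is shown because it holds 2 such near matches, whose first bases lie 84 and 34 bases before the start site. They are in capitals in the 250 bases upstream of the start (chr19:34255374-34255623, minus strand):
Acta2: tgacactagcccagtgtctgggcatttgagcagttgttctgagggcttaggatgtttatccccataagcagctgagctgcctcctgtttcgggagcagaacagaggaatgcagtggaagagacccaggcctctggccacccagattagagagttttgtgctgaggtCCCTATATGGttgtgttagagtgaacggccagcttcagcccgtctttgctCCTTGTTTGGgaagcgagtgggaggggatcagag
Of 43 other genes of the contractile apparatus and its control, listed for comparison, 37 had a window, and 5 of these (13.5%) held the exact box. They are given with 10 bases on either side and the box in capitals, as the form the members' windows lack. The lines are Myl9 (chr2:156775293-156775322, plus strand), Myl6 (chr10:128493040-128493069, minus), Vcl (chr14:20929161-20929190, plus), Ldb3 (chr14:34588697-34588726, minus) and the first of 2 boxes of Srf (chr17:46556225-46556254, minus):
Myl9: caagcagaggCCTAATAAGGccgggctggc
Myl6: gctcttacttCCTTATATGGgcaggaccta
Vcl: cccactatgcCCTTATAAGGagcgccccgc
Ldb3: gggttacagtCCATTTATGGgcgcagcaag
Srf: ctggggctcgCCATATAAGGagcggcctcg
A match describes letters in a window and does not show binding.

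Per exon length of the gene the actins stood highest. Median FPKM over the 9 libraries was 337.2 for Acta2 and 336.8 for Actg2, and Acta2 exceeded Actg2 in 3 of 9 libraries, so this pair had no fixed order. Myh11 (152), Des (132), Cnn1 (111), Mylk (37.3), Smtn (30.3), Lmod1 (14.3), Tagln (3.47) and Myocd (0.583) followed. Each of these stood below its neighbour above in 9 of 9 libraries, except Smtn, which stood below Mylk in 8. Across all libraries the FPKM ranges of neighbours overlapped down to Lmod1, while those of Lmod1 and Tagln and of Tagln and Myocd did not. The position of Tagln carries a limit: 67.9% of its 1988 exon bases are shared with exons of opposite-strand genes (1241 bases with Gm48529 and 108 with Pcsk7). Neither the strandedness of the libraries nor the treatment of reads in such overlaps is stated, and their part in the level of Tagln was not tested.

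Acta2 (ENSMUSG00000035783, chr19:34241090-34255590 in GRCm38, minus strand) encodes the smooth muscle α-actin of vessels, gut muscle and myofibroblasts. It had 778, 1219.6 and 693 CPM in IR+CF-2 (libraries 1 to 3 in turn, as throughout), 741, 489.9 and 282 in IR (2 to 4), and 993, 454 and 916 in Con (2 to 4). IR+CF-2 2 was the highest library and IR 4 the lowest, and all 3 pairs of groups overlapped. The log2 fold change was -0.65 ± 0.37 for IR with Con (adjusted p = 0.309, edgeR), 0.76 ± 0.37 for IR+CF-2 with IR (adjusted p = 0.389) and 0.10 ± 0.37 for IR+CF-2 with Con (adjusted p = 0.875). Actg2 (ENSMUSG00000059430, chr6:83512905-83536265, minus strand) encodes the γ-actin typical of visceral muscle. Its CPM were 524, 695 and 549 in IR+CF-2, 506, 353 and 216 in IR, and 868, 345 and 683 in Con. All 3 IR+CF-2 libraries exceeded all 3 IR libraries, by a narrow margin over IR 2, while IR and Con overlapped. Fold changes were -0.82 ± 0.33 for IR with Con (adjusted p = 0.178), 0.64 ± 0.33 for IR+CF-2 with IR (adjusted p = 0.419) and -0.18 ± 0.33 for IR+CF-2 with Con (adjusted p = 0.736). The coding sequences of these 2 actins are 84.4% identical over 1131 aligned bases, and how reads that match several actins were counted is not stated.

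Myh11 (ENSMUSG00000018830, chr16:14194535-14291372, minus strand) is the myosin heavy chain of smooth muscle and had the most reads of the 10. It stood at 1157, 1799.6 and 1019 CPM in IR+CF-2, 1422, 599.8 and 475 in IR, and 2296.5, 795 and 2166 in Con. Con 2 and Con 4 exceeded every other library, while Con 3 lay among the IR libraries. The within-group spread of Myh11 was the widest of the 10, and its fold changes were -1.09 ± 0.47 for IR with Con (adjusted p = 0.198), 0.60 ± 0.46 for IR+CF-2 with IR (adjusted p = 0.597) and -0.48 ± 0.46 for IR+CF-2 with Con (adjusted p = 0.492). Des (ENSMUSG00000026208, chr1:75360329-75368579, plus strand) encodes desmin, the intermediate filament of muscle. Desmin transcripts were at 542, 639 and 495 CPM in IR+CF-2, 465, 292 and 195 in IR, and 953, 311 and 820.4 in Con. The IR+CF-2 libraries all lay above the IR libraries and between Con 3 and the other Con libraries. Its fold changes were -1.13 ± 0.38 for IR with Con (adjusted p = 0.122), 0.74 ± 0.38 for IR+CF-2 with IR (adjusted p = 0.416) and -0.39 ± 0.38 for IR+CF-2 with Con (adjusted p = 0.499).

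Cnn1 (ENSMUSG00000001349, chr9:22099216-22109630, plus strand) encodes calponin 1, which binds actin and restrains the myosin ATPase. It had 383, 396 and 305 CPM in IR+CF-2, 245, 164 and 100.4 in IR, and 608, 197 and 423 in Con. Of the 10 genes it had the fold change furthest from 0 in both comparisons with IR: -1.27 ± 0.38 for IR with Con (adjusted p = 0.0901) and 1.01 ± 0.38 for IR+CF-2 with IR (adjusted p = 0.27). IR and Con overlapped because Con 3 lay below IR 2, whereas every IR+CF-2 library exceeded every IR library. For IR+CF-2 with Con the value was -0.26 ± 0.37 (adjusted p = 0.664). Tagln (ENSMUSG00000032085, chr9:45929619-45936058, minus strand) encodes transgelin or SM22α, an actin-bundling protein. Its CPM were 6.70, 7.74 and 6.91 in IR+CF-2, 7.12, 5.19 and 3.96 in IR, and 9.83, 5.04 and 8.39 in Con. The pattern was that of the other genes on a smaller scale, with fold changes of -0.52 ± 0.26 (IR with Con, adjusted p = 0.261), 0.31 ± 0.26 (IR+CF-2 with IR, adjusted p = 0.637) and -0.21 ± 0.26 (IR+CF-2 with Con, adjusted p = 0.605).

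Smtn (ENSMUSG00000020439, chr11:3517523-3540612, minus strand) encodes smoothelin, an actin-binding protein of contractile smooth muscle. Smoothelin transcripts were at 133, 201 and 124 CPM in IR+CF-2, 136, 74.7 and 53.5 in IR, and 228, 92.0 and 189 in Con. IR 2 lay just above IR+CF-2 1 and 3, so all pairs of groups overlapped, and fold changes were -0.95 ± 0.37 (IR with Con, adjusted p = 0.166), 0.72 ± 0.37 (IR+CF-2 with IR, adjusted p = 0.418) and -0.24 ± 0.37 (IR+CF-2 with Con, adjusted p = 0.692). Of its exon bases 16.3% are shared with opposite-strand transcripts, with the same limit as for Tagln. Lmod1 (ENSMUSG00000048096, chr1:135324807-135368065, plus strand) encodes leiomodin 1, which nucleates actin filaments. It had 54.7, 83.8 and 56.5 CPM in IR+CF-2, 58.7, 32.6 and 19.6 in IR, and 74.3, 31.7 and 70.5 in Con. Here IR+CF-2 2 was the highest of all libraries and IR 2 exceeded IR+CF-2 1 and 3. Fold changes were -0.68 ± 0.39 (IR with Con, adjusted p = 0.315), 0.74 ± 0.39 (IR+CF-2 with IR, adjusted p = 0.421) and 0.06 ± 0.39 (IR+CF-2 with Con, adjusted p = 0.933).

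Mylk (ENSMUSG00000022836, chr16:34745210-35002420, plus strand) encodes myosin light chain kinase. Its CPM were 420.4, 502 and 349.6 in IR+CF-2, 468, 306 and 203 in IR, and 673, 355 and 655 in Con. Con 2 and Con 4 stood above all other libraries, and IR+CF-2 3 lay just below Con 3. The fold changes were -0.80 ± 0.30 (IR with Con, adjusted p = 0.152), 0.30 ± 0.30 (IR+CF-2 with IR, adjusted p = 0.688) and -0.49 ± 0.30 (IR+CF-2 with Con, adjusted p = 0.268). Myocd (ENSMUSG00000020542, chr11:65176561-65269989, minus strand) encodes myocardin, the coactivator of serum response factor. It was the least abundant of the 10, at 4.37, 6.81 and 3.48 CPM in IR+CF-2, 3.75, 1.90 and 1.44 in IR, and 4.95, 2.33 and 5.34 in Con. IR 2 lay above IR+CF-2 3, and Con 4 above Con 2, the single exception to the order of the Con libraries. Its fold changes were -0.85 ± 0.43 (IR with Con, adjusted p = 0.261), 0.97 ± 0.43 (IR+CF-2 with IR, adjusted p = 0.341) and 0.13 ± 0.42 (IR+CF-2 with Con, adjusted p = 0.86).

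**Figure D1:**
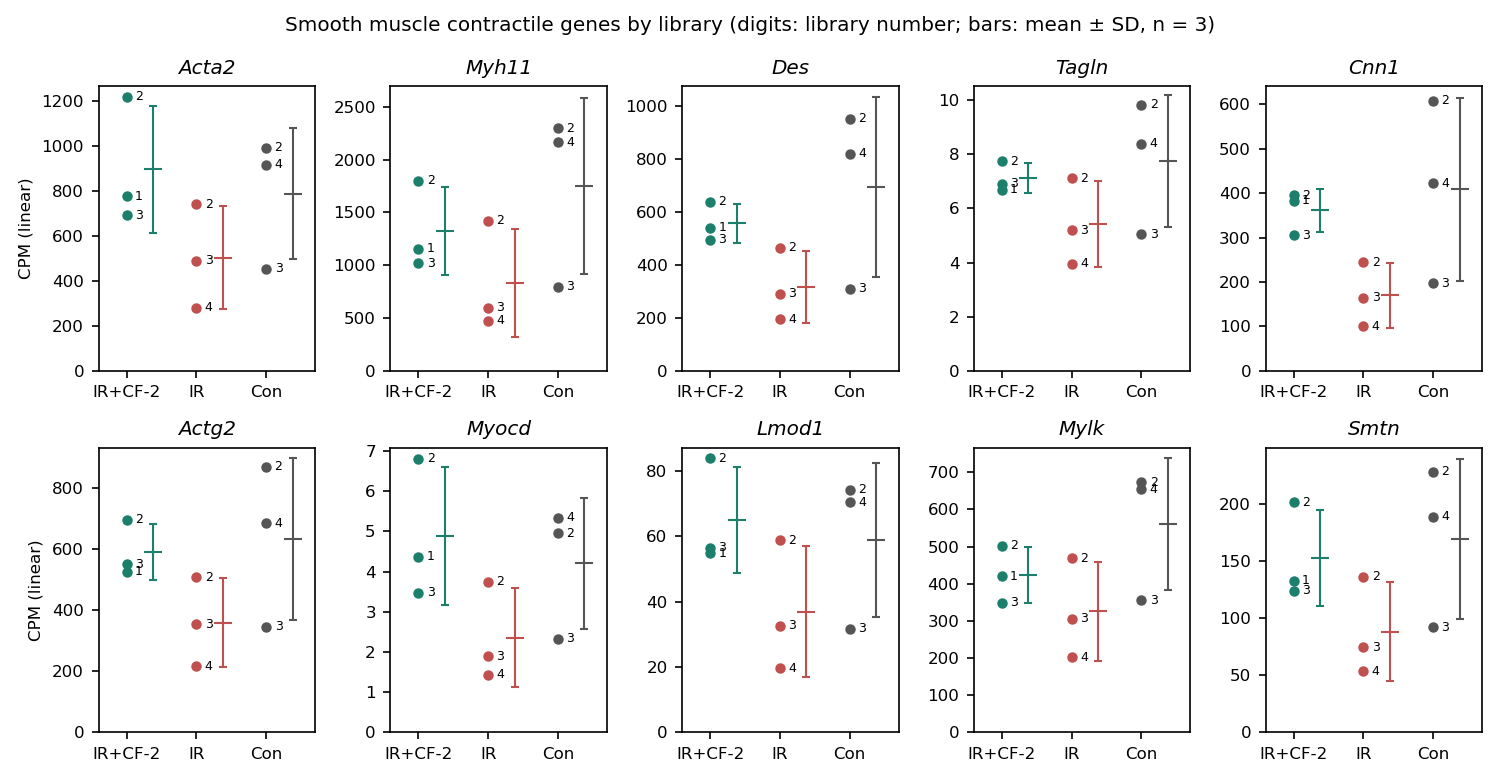
Level of each of the 10 genes in CPM on linear axes from 0, for the IR+CF-2, IR and Con groups, with 1 point per library (digit: library number) and the mean ± SD (n = 3) beside the points. IR 4 is the lowest point for each of the 10 genes, and Con 3 lies apart below Con 2 and Con 4.

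The order of libraries within a group was nearly the same for all 10 genes. It was IR 2, IR 3, IR 4 from high to low for 10 of 10, and Con 2, Con 4, Con 3 for 9. In IR+CF-2, library 2 led for 10 of 10, followed by library 1 for 7 genes and by library 3 for Tagln, Actg2 and Lmod1. The highest of the 9 libraries was Con 2 for 7 genes and IR+CF-2 2 for Acta2, Myocd and Lmod1. Averaged over the 10 genes, the level against the Con mean was -0.13, 0.30 and -0.27 (log2) in the IR+CF-2 libraries, -0.19, -0.92 and -1.50 in IR, and 0.48, -0.79 and 0.31 in Con. IR 2 thus lay inside the IR+CF-2 range and Con 3 between IR 2 and IR 3. The 10 genes together took 0.439 ± 0.103% of all counts in IR+CF-2, 0.264 ± 0.128% in IR and 0.508 ± 0.219% in Con (SD, n = 3 each).

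Spread within groups was wider for these genes than for most. The pooled within-group SD of log2(CPM + 0.5) ran from 0.356 (Tagln) to 0.734 (Myh11), with a median of 0.597 over the 10 genes and 0.265 over all tested genes. A spread at least as wide as that of Myh11 was found in 4.64% of tested genes, and one as wide as that of Tagln in 31.5%. By group, the median SD of the 10 was 0.300 in IR+CF-2, 0.635 in IR and 0.685 in Con, where the medians over all tested genes were 0.277, 0.216 and 0.167. The IR+CF-2 libraries were therefore close to the usual spread and the other 2 groups were not. For Des the SD was 0.187 in IR+CF-2, 0.628 in IR and 0.876 in Con, and for Cnn1 it was 0.204, 0.642 and 0.829. Acta2, Myh11 and Myocd, at 0.431, 0.431 and 0.447, kept the widest spread in IR+CF-2.

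**Figure D2:**
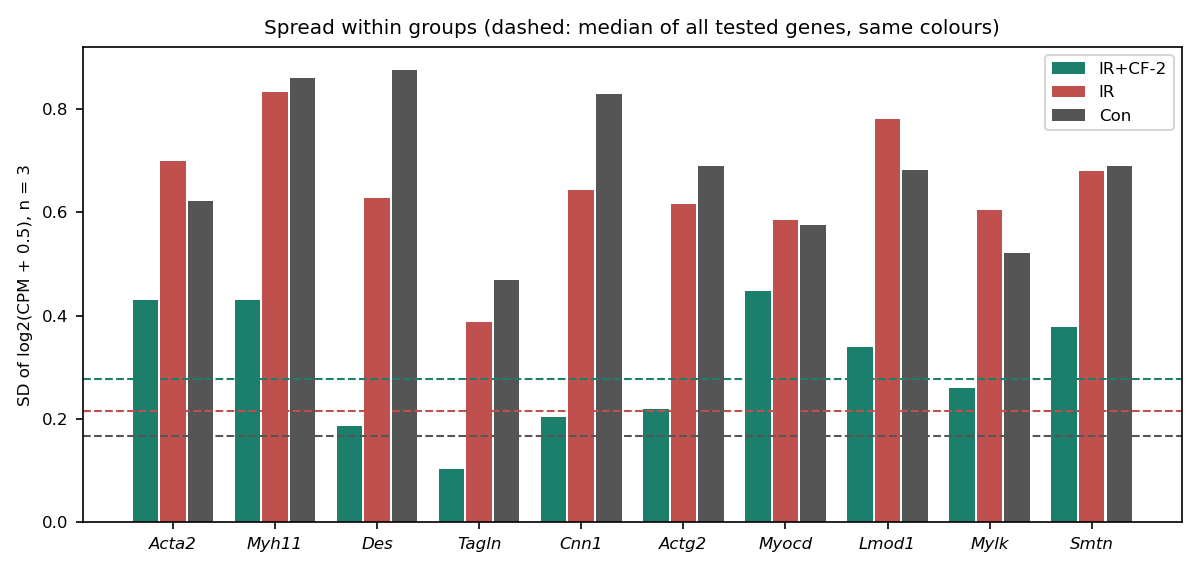
Standard deviation of log2(CPM + 0.5) within each group (3 libraries) for the 10 genes, with dashed lines at the median over all tested genes in the same colours. In IR and Con every bar exceeds the line of its group, and in IR+CF-2 the bars of Des, Tagln, Cnn1, Actg2 and Mylk lie below it.

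The comparison of IR with Con asks what 13 Gy had done to these genes at 84 h. All 10 log2 fold changes were below 0, from -1.27 (Cnn1) to -0.52 (Tagln), with a median of -0.83 against 0.01 over all tested genes. By edgeR 0 of 10 passed the adjusted test, where 3.21% of all tested genes were called and 0.845% called lower. At an unadjusted p under 0.05, 6 of the 10 were lower in IR (Cnn1, Des, Mylk, Smtn, Actg2 and Myh11), where 8.2% of tested genes were. In 10 of 10 genes the IR and Con libraries overlapped, where 22.4% of tested genes had separate groups with IR higher and 14.2% with IR lower. Taken by library number, IR was below Con in 3 of 3 same-numbered pairs for Myh11, Des, Cnn1, Mylk, Smtn and Myocd, and in 2 of 3 for Acta2, Actg2, Tagln and Lmod1, where IR 3 exceeded Con 3. Over all tested genes 27.2% were lower in IR in all 3 pairs and 30.2% higher. With the library number as a block 0 of the 10 were called, where 1.43% of genes were called lower. Limma-voom called 0, and DESeq2 called 2 lower, Cnn1 (adjusted p = 0.0124) and Des (adjusted p = 0.0305), where it called 4.45% of genes lower. With Con 3, IR 4 and IR+CF-2 2 all left out, edgeR called 6 lower, namely Cnn1 (-1.34, adjusted p = 0.00923), Des (-1.24, adjusted p = 0.00549), Actg2, Mylk, Smtn and Acta2, where 9.83% of genes were called lower. These 3 libraries hold the lowest or highest level of the 10 genes in their groups, so leaving them out narrows the spread by construction.

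Setting IR+CF-2 against IR asks how CF-2 altered the irradiated colon. All 10 fold changes were above 0, from 0.30 (Mylk) to 1.01 (Cnn1), with a median of 0.73 against 0.02 over all tested genes. EdgeR called 0 of 10, where 0.302% of genes were called in either direction and 0.0574% higher, and DESeq2 and limma-voom also called 0. At an unadjusted p under 0.05, 2 were higher in IR+CF-2 (Cnn1 and Myocd), against 6.48% of tested genes. For Des, Cnn1 and Actg2 the IR+CF-2 libraries all exceeded the IR libraries, a separation that 9.76% of tested genes showed. This comparison uses the same IR libraries as the first, so a low value in IR moves both. With log2 CPM of Hoxa13, a gene of the distal colon, as a term of the fit, all 10 fold changes were below 0, with a median of -0.70 and 0 called. Over all tested genes, the alternative fits called 0 to 994 in this comparison. Hoxa13 itself was higher in all IR+CF-2 libraries than in all IR libraries, at 5.16 ± 1.14, and did not pass the test (adjusted p = 0.0953, edgeR). For Mylk the fold change was -0.05 when Con 3, IR 4 and IR+CF-2 2 were all left out. That removal drops the highest IR+CF-2 library and the lowest IR library, so it lowers this fold change by construction.

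Between IR+CF-2 and Con the fold changes scattered around 0, from -0.49 (Mylk) to 0.13 (Myocd), with 3 above 0, 7 below and a median of -0.22 against 0.02 over all tested genes. EdgeR, DESeq2 and limma-voom each called 0 of 10, while edgeR called 19.2% of tested genes in this comparison. At an unadjusted p under 0.05 the count was also 0, against 35.6% of tested genes. In 10 of 10 genes the groups overlapped, where 26.3% of tested genes had separate groups with IR+CF-2 higher and 14.9% with IR+CF-2 lower. Standard errors of 0.26 to 0.46 leave room for differences of either sign. With those 3 libraries left out edgeR called Des (-0.83, adjusted p = 0.0148), Mylk (-0.84, adjusted p = 0.0118) and Actg2 (-0.59, adjusted p = 0.0326) lower, where 19.2% of genes were called lower. That fit drops the highest IR+CF-2 library and the lowest Con library of these genes, so it lowers their fold changes by construction.

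**Figure D3:**
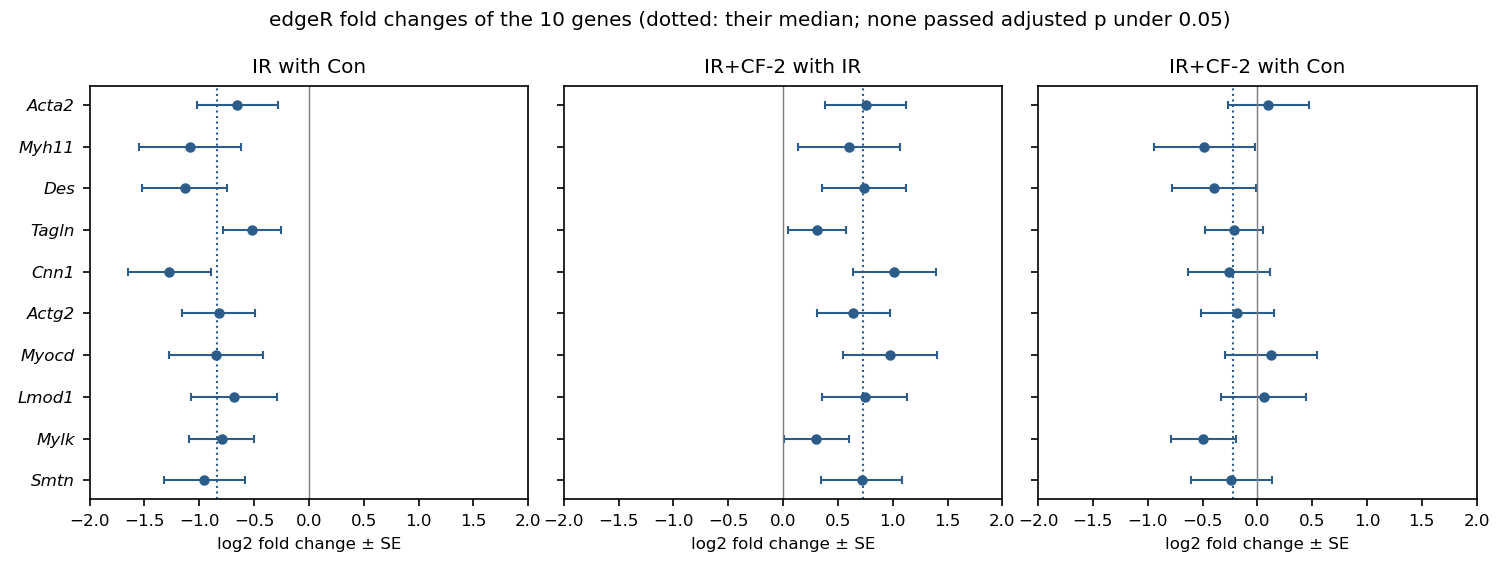
Fitted log2 fold change ± standard error of the 10 genes from edgeR in the 3 comparisons, with the median of the 10 as a dotted line. All 10 lie below 0 for IR with Con and above 0 for IR+CF-2 with IR, and they lie on both sides of 0 for IR+CF-2 with Con, with medians of -0.83, 0.73 and -0.22.

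Beneath the shared profile each gene departed from the list by little. The log2 level of a gene had an SD across the 9 libraries of 0.408 to 0.803, and its difference from the mean of the 10 had an SD of 0.0708 (Smtn) to 0.266 (Tagln). The correlation of each gene with the mean of the other 9 was 0.948 (Mylk) to 0.995 (Smtn) over 9 libraries, which share tissue composition and scaling. Smtn therefore followed the block most closely. Against the mean of the 10, Mylk was at -0.33 ± 0.09 in IR+CF-2, 0.06 ± 0.07 in IR and 0.00 ± 0.18 in Con (log2, SD, n = 3). Cnn1 was at -0.01 ± 0.19 in IR+CF-2, -0.35 ± 0.09 in IR and 0.00 ± 0.20 in Con. Mylk thus lay below the block in IR+CF-2, and Cnn1 in IR. The Con means are 0 by construction, since each gene was centred on its Con mean. Tagln was at 0.37 ± 0.23 in IR and -0.04 ± 0.20 in IR+CF-2. Myocd was at 0.28 ± 0.20 in IR+CF-2 and 0.01 ± 0.13 in IR. Acta2 stood at 0.26 ± 0.14 in IR+CF-2 and 0.20 ± 0.11 in IR, and Lmod1 at 0.25 ± 0.11 and 0.15 ± 0.14, so both were relatively high in the irradiated groups. Myh11 was on the other side, at -0.26 ± 0.14 in IR+CF-2 and -0.23 ± 0.25 in IR.

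**Figure D4:**
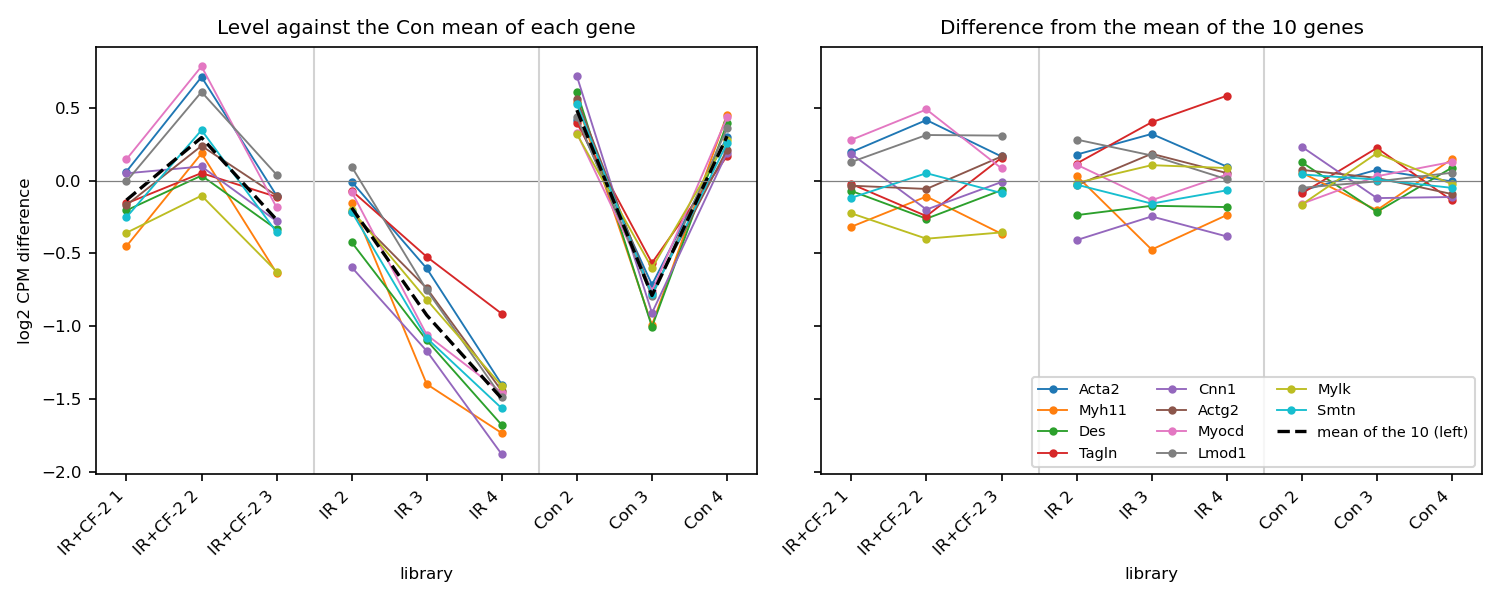
Left, log2 CPM of each gene minus its Con mean in the 9 libraries, with the mean of the 10 dashed. Right, the same values minus that mean, on the same scale. Lines join values of a gene within a group and imply no order of mice. The left panel spans -1.88 to 0.79 and the right panel -0.47 to 0.58, with Tagln highest in IR 4.

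Ratios between members do not depend on library scaling, and 3 were compared. The log2 ratio of Acta2 to Myh11 was -0.57, -0.56 and -0.56 in IR+CF-2, -0.94, -0.29 and -0.75 in IR, and -1.21, -0.81 and -1.24 in Con. All IR+CF-2 ratios exceeded all Con ratios, a difference of 0.52 (exact permutation test, 2-sided, p = 0.1, the smallest that 3 against 3 allows). The log2 ratio of Myocd to Myh11 was -8.05, -8.05 and -8.20 in IR+CF-2, -8.57, -8.31 and -8.37 in IR, and -8.86, -8.41 and -8.66 in Con. Here the IR+CF-2 libraries exceeded both other groups, by 0.32 over IR and 0.55 over Con (exact permutation p = 0.1 for each). The log2 ratio of Acta2 to Actg2 differed by 0.13 for IR with Con, 0.10 for IR+CF-2 with IR and 0.23 for IR+CF-2 with Con (exact permutation p = 0.3, 0.6 and 0.3). Gut muscle has both actins, so this ratio does not set vessels and myofibroblasts against visceral muscle. Adjusted over the 9 tests, p was between 0.3 and 0.7 for all of them.

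Other genes of the contractile programme, listed in 4 sets, mostly lay on the same side of 0 as the 10 in both comparisons with IR, and few were called. Of 43 listed genes 42 were tested (Barx1 was filtered out). For IR with Con, 38 of 42 fold changes were below 0, with a median of -0.47. EdgeR called 0, with 8 lower at an unadjusted p under 0.05, against 8.2% of all tested genes. Limma-voom called 0, and DESeq2 called 2 lower, Synpo2 and Ppp1r12a, against 4.45% of all genes. With the library number as a block, 2 were called lower: Synpo2 (-1.11, adjusted p = 0.0471) and the muscarinic receptor gene Chrm2 (-1.26, adjusted p = 0.033), again where 1.43% of genes were called lower. For IR+CF-2 with IR, 38 of 42 were above 0, with a median of 0.51. EdgeR and limma-voom called 0, with 10 higher at an unadjusted p under 0.05 by edgeR, against 6.48% of all tested genes. DESeq2 called Cald1, Chrm2, Kcnmb1 and Nkx2-3 higher, where 2.56% of genes were called higher.

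Among filament proteins, Tpm2 (β-tropomyosin), Cald1 (caldesmon) and Myl9 (the regulatory light chain) had fold changes of -0.82 ± 0.36, -0.97 ± 0.43 and -0.79 ± 0.36 for IR with Con and 0.61 ± 0.36, 1.30 ± 0.43 and 0.27 ± 0.36 for IR+CF-2 with IR. None of these passed the adjusted test. Tpm1 (α-tropomyosin) was at -0.37 ± 0.23 and 0.28 ± 0.23. Cald1 had 372, 398 and 266 CPM in IR+CF-2, 207, 108 and 85.8 in IR, and 345, 104 and 332 in Con, so its IR+CF-2 libraries exceeded all IR libraries. Among genes that control contraction, Chrm2 had fold changes of -1.27 ± 0.58 and 1.97 ± 0.59 in the same 2 comparisons (adjusted p = 0.22 and 0.186, edgeR). Kcnmb1, the β-subunit of the calcium-activated potassium channel, had -0.72 ± 0.46 and 1.43 ± 0.46 (adjusted p = 0.364 and 0.213). Ppp1r12a, the targeting subunit of myosin phosphatase, and Hspb6, a small heat-shock protein of muscle, had -0.37 ± 0.13 and -0.76 ± 0.29 for IR with Con (adjusted p = 0.134 and 0.157).

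In IR+CF-2 with Con 3 of these genes passed the adjusted test, all from the set of dense bodies, cytoskeleton and adhesion. Actn1 (α-actinin 1) rose by 0.61 ± 0.16 (adjusted p = 0.0316) and Vcl (vinculin) by 0.46 ± 0.14 (adjusted p = 0.0491), and Ldb3, a PDZ and LIM domain protein, fell by 0.61 ± 0.17 (adjusted p = 0.0386). Actn1 had 227, 224 and 234 CPM in IR+CF-2, 205, 148 and 127 in IR, and 156, 111 and 152 in Con. Vcl had 99.4, 99.4 and 92.3 CPM in IR+CF-2, 90.9, 70.3 and 59.8 in IR, and 74.4, 54.2 and 70.1 in Con. These 2 genes are active in many cell types beside muscle, and all IR+CF-2 libraries lay above both other groups. The share called, 3 of 42, was below the 19.2% of all tested genes, and 0 of the 3 comparisons called any filament gene. With upper quartile scaling, with no filter or with the 2 groups fitted alone the count was 1, and with the library number as a block it was 0. Leaving out IR+CF-2 1, IR+CF-2 3, IR 3 or any Con library also brought it to 0. Without Con 3, IR 4 and IR+CF-2 2 it was 16, in a fit that called 39.5% of all genes. These libraries hold the extremes of the muscle genes in their groups, so shifts in genes of like profile are built in. Among transcription factors Srf, the partner of Myocd, had fold changes of 0.16 ± 0.13 for IR with Con and 0.28 ± 0.13 for IR+CF-2 with Con (adjusted p = 0.466 and 0.15). Nkx2-3, a homeobox factor of gut mesenchyme, had -0.09 ± 0.23 for IR with Con, 0.82 ± 0.23 for IR+CF-2 with IR (adjusted p = 0.168) and 0.74 ± 0.23 for IR+CF-2 with Con (adjusted p = 0.0561).

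The genes outside the list with the profile most like the mean of the 10, by Pearson r of log2 CPM over the 9 libraries among 15316 genes, were Tmem47 (0.994), Jph2 (0.992), Grik2 (0.992), Zfp651 (0.991), Ajm1 (0.989), Adcy5 (0.989), Marveld1 (0.989), Speg (0.988), Dact3 (0.988) and Chst12 (0.988). Jph2, a junctophilin that holds the calcium store near the surface membrane, is the single one of them in the companion sets. It had 40.8, 56.3 and 40.1 CPM in IR+CF-2, 38.8, 22.8 and 14.1 in IR, and 56.0, 25.7 and 53.5 in Con. Tmem47 had 18.2, 24.5 and 14.6 CPM in IR+CF-2, 15.5, 9.81 and 6.37 in IR, and 24.9, 11.2 and 22.3 in Con. Both repeat the order of libraries given above for the members, and this likeness was the criterion by which they were chosen.

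Within IR and within Con, marker sums of 3 other cell types of the colon wall had their highest library where the 10 genes did, while epithelial markers kept a narrow range. Mesothelial markers, given further below, did so in IR but not in Con. The summed level of 12 enteric neuron and glia genes was 77.0, 187 and 85.8 CPM in IR+CF-2, 126, 86.4 and 43.4 in IR, and 170.4, 96.8 and 112 in Con. The lowest libraries were also those of the muscle genes, IR 4 and Con 3. Markers of fibroblasts (8 genes) summed to 2034, 3512 and 1712 CPM in IR+CF-2, 1547, 1013 and 527 in IR, and 1477, 649.5 and 994 in Con. Between groups the fibroblast list differed from the muscle genes, since every IR+CF-2 sum exceeded every Con sum. Its median fold change was -0.13 for IR with Con (3 of 8 above 0) and 0.71 for IR+CF-2 with Con (8 of 8 above 0), where the 10 muscle genes had -0.83 and -0.22. Of these Col3a1, a fibrillar collagen, rose in IR+CF-2 with Con by 1.41 ± 0.42 (adjusted p = 0.0477), with 912, 1563 and 708 CPM in IR+CF-2 and 510.3, 254 and 366 in Con, a call that was kept in 2 of 9 fits with 1 library left out. Endothelial markers (8 genes) summed to 110.1, 246 and 112 CPM in IR+CF-2, 114, 95.7 and 54.8 in IR, and 168, 86.1 and 96.7 in Con. These 3 lists had their lowest sum of the 9 libraries in IR 4 and their highest in IR+CF-2 2. For IR with Con the enteric list had a median fold change of -0.99, with 11 of 12 below 0. The endothelial list had -0.41, with 8 of 8 below 0. For IR+CF-2 with IR the medians were 0.40 (enteric, 11 of 12 above 0), 0.69 (endothelial, 8 of 8) and 0.90 (fibroblast, 8 of 8). These medians lie on the same side of 0 as those of the muscle genes, and 0 of these genes were called in either comparison. The 10 epithelial markers summed to 15390 to 17590 CPM in IR+CF-2, 15370 to 18120 in IR and 18090 to 18910 in Con, and in IR+CF-2 with Con Epcam fell by 0.48 ± 0.15 (adjusted p = 0.0498) and Krt18 rose by 0.97 ± 0.28 (adjusted p = 0.0419), calls kept in 1 and in 2 of 9 fits with 1 library left out. In that comparison 9 of the 10 were below 0 and Krt18 alone above, with a median of -0.31. The 2 of 10 called, and the 1 of 8 fibroblast genes, compare with 19.2% of all tested genes. The part of these cell types in the muscle results was not tested.

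Vascular muscle and pericyte markers were given separately because vessels share contractile genes with the gut wall. Of 9 tested genes Pdgfrb, the platelet-derived growth factor receptor β, fell by 0.90 ± 0.18 in IR with Con (adjusted p = 0.0401), with 17.4, 13.0 and 11.6 CPM in IR and 29.6, 24.2 and 24.3 in Con. It was at 28.5, 35.5 and 23.9 CPM in IR+CF-2, and the fold change for IR+CF-2 with IR was 0.97 ± 0.18 (adjusted p = 0.0692). All IR libraries of Pdgfrb lay below all others. The call for IR with Con was kept in 1 of 9 fits with 1 library left out (without IR+CF-2 2), and adjusted p reached 0.197 without IR 3, with fold changes of -1.04 to -0.82. The fit without IR 3 called 1 gene among all tested genes for IR with Con, against 616 in the main fit. Limma-voom (adjusted p = 0.0554) and the fit with the Hoxa13 term (adjusted p = 0.135) also did not call it, and the other 9 alternatives did. Of the 9 tested genes it was the 1 called for IR with Con, where 0.845% of all tested genes were called lower. The list had 3 genes above 0 and 6 below there, with a median of -0.16 and Notch3 at 0.91 ± 0.40 (adjusted p = 0.211). In IR+CF-2 with Con 2 of the 9 were called, against 19.2% of all genes, with 6 above 0, 3 below and a median of 0.13. The potassium channel gene Kcnj8 rose by 1.27 ± 0.30 (adjusted p = 0.0229) and the receptor gene Notch3 by 1.53 ± 0.41 (adjusted p = 0.033), calls that were kept in 5 and in 4 of 9 fits with 1 library left out and lost with the library number as a block. Kcnj8 had 41.4, 32.0 and 29.8 CPM in IR+CF-2, 21.4, 14.8 and 7.53 in IR, and 14.2, 12.9 and 12.8 in Con, with IR 4 again lowest. The pericyte gene Rgs5, named after its values were seen, lay on the other side, with 268, 206 and 260.2 CPM in IR+CF-2 and 569.5, 233 and 545 in Con, at -0.96 ± 0.39 (adjusted p = 0.111). Of the 3 markers of interstitial cells of Cajal, the pacemaker cells of the gut wall, Kit fell by 1.11 ± 0.30 in IR+CF-2 with Con (adjusted p = 0.035), a call kept in 3 of 9 fits with 1 library left out and lost with the block. The other markers did not pass: the chloride channel gene Ano1 was at 1.40 ± 0.54 (adjusted p = 0.101) and the transcription factor gene Etv1 at -0.13 ± 0.36 (adjusted p = 0.833). Kit had 47.1, 47.7 and 38.8 CPM in IR+CF-2, 61.8, 30.1 and 75.7 in IR, and 100.8, 91.4 and 76.3 in Con, and is also expressed by mast cells. Ano1 had 61.2, 252 and 53.4 CPM in IR+CF-2, 54.6, 35.3 and 28.9 in IR, and 53.2, 34.3 and 42.7 in Con, highest in IR+CF-2 2.

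**Figure D5:**
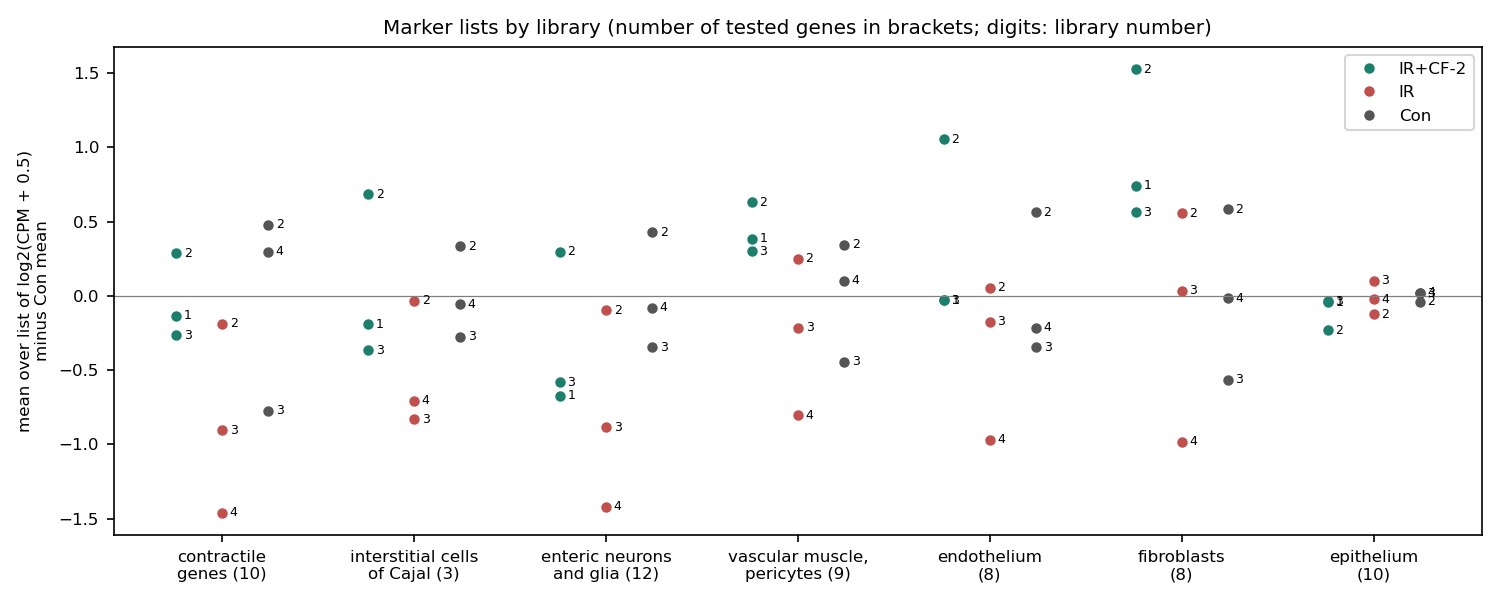
Mean over each list of log2(CPM + 0.5) minus the Con mean, for the 10 contractile genes and for markers of 6 other cell types, with 1 point per library (digit: library number). IR 4 is lowest for the contractile genes, the enteric, pericyte, endothelial and fibroblast lists, IR+CF-2 2 stands high in the endothelial and fibroblast lists, and the epithelial list stays between -0.23 and 0.10.

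The sum of genes that mark the distal end of the colon followed the same order of libraries within each group. The summed level of Hoxa13, Hoxb13 and Hoxd13 was 68.3, 538 and 60.9 CPM in IR+CF-2, 3.11, 1.73 and 0.771 in IR, and 44.1, 1.06 and 8.12 in Con. Within each of the 3 groups the order of libraries by this sum was the order by the mean of the 10 muscle genes. Hoxa13 alone had 59.5, 78.8 and 59.6 CPM in IR+CF-2, 2.82, 1.68 and 0.771 in IR, and 44.0, 0.966 and 7.96 in Con. All IR+CF-2 libraries thus exceeded both other groups for it, and IR+CF-2 3 stood just above IR+CF-2 1, unlike the sum. Hoxd13 was at 162 CPM in IR+CF-2 2 and at 0.290 or less in every other library. Hoxb13 rose in IR+CF-2 with Con by 10.4 ± 2.6 (adjusted p = 0.035, edgeR), with 8.82, 297 and 1.26 CPM in IR+CF-2 and 0.0492, 0 and 0.159 in Con. That call was kept in 5 of 9 fits with 1 library left out. It was the 1 called of 2 distal genes tested, where 19.2% of all tested genes were called, and Hoxa13 was at 1.85 ± 0.97 (adjusted p = 0.204). With log2 CPM of Hoxa13 as a term of the fit, the median fold change of the 10 muscle genes was -0.33 for IR with Con, -0.70 for IR+CF-2 with IR and -1.01 for IR+CF-2 with Con, and 0 of 10 passed the test in each. Over all tested genes this fit called 49 for IR with Con, against 616 without the term, so 0 of 10 says little about the muscle genes. The alternative fits called as few as 0 genes for IR+CF-2 with IR and 6 for IR+CF-2 with Con. Since Hoxa13 separates IR+CF-2 from IR and also from Con, the position of the tissue piece and the treatment cannot be told apart by this term in either comparison.

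In the skeletal muscle list the myosins were at or near 0, while Acta1, the skeletal α-actin gene, was not. Acta1 had 10.4, 15.6 and 8.64 CPM in IR+CF-2, 25.15, 25.9 and 12.9 in IR, and 5.54, 16.0 and 4.09 in Con. Its fold change for IR with Con was 1.27 ± 0.52 (adjusted p = 0.183). The myosins Myh1 and Myh4 were at 0 to 0.0494 CPM in all 9 libraries and Myh2 at 0 to 0.857, and the list summed to 24.9 to 26.0 CPM in IR+CF-2, 16.8 to 38.2 in IR and 17.4 to 24.1 in Con. Its member Tnni2, a fast troponin, rose in IR with Con by 2.75 ± 0.60 (adjusted p = 0.0471), with 2.82, 4.56 and 1.23 CPM in IR and 0.271, 0.471 and 0.504 in Con. It also rose in IR+CF-2 with Con, by 3.92 ± 0.62 (adjusted p = 0.0096), with 6.77, 3.10 and 10.6 CPM in IR+CF-2. The call for IR with Con was kept in 2 of 9 fits with 1 library left out (without IR+CF-2 2 and without IR 4) and in 6 of 11 other alternatives, and that for IR+CF-2 with Con in 9 of 9 and in 10 of 11. The list as a whole lay on both sides of 0: for IR with Con 3 of 6 tested genes, Tnni2 included, were above 0 and 3 below, with a median of -0.16, and the muscle creatine kinase gene Ckm was at -0.89 ± 0.45 (adjusted p = 0.264). Cardiac markers summed to 2.57 to 24.2 CPM in IR+CF-2, 21.1 to 26.6 in IR and 6.67 to 9.80 in Con. Most of this was Myl7, an atrial light chain, except in IR+CF-2 2, and Nppa was at 0 to 0.0739 CPM. Mesothelial markers summed to 22.6 to 67.8 CPM in IR+CF-2, 10.1 to 16.8 in IR and 13.3 to 24.2 in Con. Within Con their sum was highest in Con 3 and lowest in Con 2, whereas the smooth muscle genes were lowest in Con 3. Msln rose in IR+CF-2 with Con by 1.61 ± 0.41 (adjusted p = 0.0288), kept in 5 of 9 fits with 1 library left out. Msln was the 1 of 5 called, with 5 of 5 above 0, where 19.2% of all tested genes were called.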

How the data were processed

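Poly(A) RNA of 9 colon libraries had been sequenced paired-end. The submitters' processing notes name HISAT2, featureCounts, DESeq2 and the builds GRCm38 and mm10. Tool versions and strandedness are not stated. The authors deposited raw counts per gene and library, and FPKM values that equal the count over library total and a whole gene length (32497 genes, within 0.01 bases). CPM were computed from the deposited counts and library totals. Positions are from GENCODE M21 on GRCm38.

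Counts were fitted in edgeR 4.0.16 (R 4.3.3) with filterByExpr, TMM scaling and the robust quasi-likelihood F-test, group as the only term over all 9 libraries, and Benjamini-Hochberg adjustment over 19174 genes. Tests were 2-sided. Standard errors were obtained by dividing the absolute log2 fold change by the square root of F. Log2 CPM used a pseudocount of 0.5 where stated. The fit was tested on simulated data. The members, the gene lists and the rule for named genes (all 10 members, up to 4 genes per list with the smallest p, and the 10 most similar profiles) were chosen with earlier results of these data known, and not every gene that meets the rule is printed.

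Deviations from the group means correlated at 0.347, 0.148 and 0.116 between IR and Con libraries of the same number, all above 0.1, so the number was taken to pair these 2 groups, from the data and not from the labels. IR+CF-2 shares 2 numbers with each other group, at correlations of 0.115 and 0.054 with IR and 0.258 and 0.053 with Con, and was not taken as paired. The replicate block nevertheless covered all 9 libraries, so it tied IR+CF-2 2 and 3 to libraries of the same number. IR+CF-2 1 was alone in its block and adds nothing to the comparisons of that fit, which limits what its lost calls mean. Libraries of different number gave -0.216 to 0.07 between IR and Con. They gave 0.346 between IR+CF-2 1 and IR 3, and 0.189 between IR+CF-2 3 and Con 4. A value above 0.1 thus does not by itself mark a pair, and the main fit uses no pairing. No libraries were duplicates. Alternatives were scaling by RLE or upper quartile, fits unfiltered or requiring 1 CPM in 3 libraries, DESeq2 1.42.0, limma-voom (limma 3.58.1), fits of only the 2 groups compared, a replicate block for library number, a term for log2 CPM of Hoxa13, removal of mitochondrial genes, removal of Con 3, IR 4 and IR+CF-2 2 together, and removal of each library in turn. PCR copies are not told apart in the counts.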

Additional observations from a re-analysis of the deposited data

How the results depend on the processing

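Over 20 alternatives the number of the 10 muscle genes called was 0, except for IR with Con under DESeq2 (2 lower) and with Con 3, IR 4 and IR+CF-2 2 all left out (6 lower), and for IR+CF-2 with Con without those 3 libraries (3 lower). Leaving out 1 library in turn called 0 in each comparison. The median fold change of the 10 ran from -1.21 to -0.60 for IR with Con, from 0.47 to 1.10 for IR+CF-2 with IR and from -0.48 to 0.0383 for IR+CF-2 with Con in those fits, and was 0.0383 without Con 2. With the Hoxa13 term it was -0.70 for IR+CF-2 with IR and -1.01 for IR+CF-2 with Con. That term gave, for IR+CF-2 with IR, -0.55 (Acta2), -0.74 (Actg2), -0.61 (Cnn1), -0.91 (Des), -0.69 (Lmod1), -1.13 (Myh11), -0.73 (Mylk), -0.32 (Myocd), -0.71 (Smtn) and -0.63 (Tagln). For IR+CF-2 with Con it gave -0.67 (Acta2), -0.78 (Lmod1) and -0.63 (Myocd). With the 3 libraries left out together these were -0.43, -0.44 and -0.45, and Mylk in IR+CF-2 with IR was -0.0535. Leaving out the lowest Con, the lowest IR and the highest IR+CF-2 library lowers the fold changes in both comparisons by construction. Upper quartile scaling put Lmod1 in IR+CF-2 with Con at -0.0003. Leaving out 1 library gave ranges that cross 0 for IR+CF-2 with Con: Acta2 -0.18 to 0.27, Actg2 -0.46 to 0.0766, Cnn1 -0.57 to 0.10, Lmod1 -0.22 to 0.23 and Myocd -0.18 to 0.33. The ratios of Acta2 to Actg2 and to Myh11 in IR+CF-2 with IR ran from -0.015 to 0.22 and from -0.0408 to 0.28. Companion genes called for IR with Con were 2 under DESeq2, 2 under the block and 11 without the 3 libraries (all lower, where 9.83% of all genes were). For IR+CF-2 with IR DESeq2 called 4. For IR+CF-2 with Con the count was 3, with 1 under upper quartile scaling, no filter and the groups alone, 0 under the block and the Hoxa13 term, 16 without the 3 libraries (where 39.5% of all genes were called) and 0 to 4 with 1 library left out. The replicate block changed no other call of a member or companion gene. Marker calls were in most cases not kept in all fits with 1 library left out. Pdgfrb and Tnni2 in IR with Con were called in 1 and 2 of 9 fits. In IR+CF-2 with Con Epcam was called in 1, Col3a1 and Krt18 in 2, Kit in 3, Notch3 in 4, Kcnj8, Msln and Hoxb13 in 5 and Tnni2 in 9. For IR with Con, calls over all tested genes fell from 616 to 1 without IR 2, IR 3 or Con 2, and to 2 without Con 4. A call lost in those fits is thus not particular to a marker. Each of these was lost without IR+CF-2 1 and without each of Con 3 and Con 4, apart from Tnni2 in IR+CF-2 with Con. The block ended the calls of Epcam, Col3a1, Krt18, Kit, Notch3, Kcnj8 and Msln. In that fit IR+CF-2 1 carries no weight, and 2.41% of all genes were called for IR+CF-2 with Con. Over all tested genes, calls were 616 for IR with Con (49 to 4811 in the other alternatives, 944 with the block, and 1 to 3085 with 1 library left out), 58 for IR+CF-2 with IR (0 to 994, 6 with the block, and 5 to 597) and 3677 for IR+CF-2 with Con (6 to 7621, 462 with the block, and 685 to 6721). The cause of these differences was not tested. Depth does not limit the abundant members, while Myocd and Tagln rest on 56 to 399 counts a library.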
